A study of Homo sapiens with 12 samples.

Results

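The FOS and JUN family was followed in HCT116, a line of human colorectal carcinoma cells, grown with and without cystine, the oxidised dimer of cysteine. Its 7 members, FOS, FOSB, FOSL1, FOSL2, JUN, JUNB and JUND, were taken by gene name from a table of 60671 named genes, and each matched 1 row. All 7 passed the filter on low counts, as did 16994 genes in all. The tested groups were cells in DMEM with 0 mM cystine for 24 h or 48 h, after a wash, and the controls were cells left in full DMEM for the same times. Wild-type genotype, 10% fetal bovine serum and antibiotics were common to all 4 groups, each of which held 3 samples. Only the deprived cells are described as washed and given fresh medium, so the lack of cystine and the change of medium with its serum cannot be told apart. Nothing in the labels says that the 3 samples of a group were separate cultures, and p-values cover no more than the spread among them, part or all of which may be technical.

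FOS and JUN proteins are basic leucine zipper transcription factors that bind DNA as dimers, together called AP-1. JUN-type proteins can pair with each other or with FOS-type proteins, whereas FOS-type proteins need a JUN-type partner. FOS, FOSB and JUN hold strong activation domains, which FOSL1 (FRA-1) and FOSL2 (FRA-2) lack, and JUNB and JUND are commonly described as weaker activators than JUN. FOS, FOSB, JUN and JUNB are classical immediate early genes, copied within minutes of a stimulus and quickly shut off, while JUND is more evenly expressed. ERK signalling is known to sustain FOSL1 in carcinoma cells.

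The total estimated count per sample ran from 19146108 to 24179533. Epithelial markers summed to 3685 CPM (counts per 1000000 library counts) or more in every sample, with 1 of 9, CDX1, at 0 throughout. At 24 h the sums ran from 5084 to 5213 CPM in deprived cells, against 3685 to 4091 CPM in controls. At 48 h they ran from 4734 to 5275.5 CPM in deprived cells, against 3987 to 4399 CPM in controls. KRT20 and VIL1, also on this list, were low. KRT20 averaged 1.09 and 0.12 CPM in deprived cells at 24 h and 48 h, against 2.20 and 1.66 CPM in controls. The highest value of VIL1 was 2.00 CPM. Among leukocyte markers, PTPRC and CD3E had no count in any sample; CD68, which is not confined to leukocytes, averaged 11.1 and 24.8 CPM in deprived cells at 24 h and 48 h, against 4.32 and 10.2 CPM in controls. The fibroblast list summed to 16.3 to 20.7 and 20.4 to 22.6 CPM in deprived cells at 24 h and 48 h, against 32.3 to 34.2 and 44.7 to 49.4 CPM in controls, nearly all of it COL1A1, and the endothelial list stayed at or below 2.41 CPM. These are bulk samples, so fewer cells with a transcript and less of it per cell cannot be told apart.

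Promoter sequence is shown for 4 members whose transcripts went different ways, JUN and JUND, which were higher in deprived cells, and FOS and JUNB, which were lower. Each run covers 250 bases before to 50 after the annotated start, from RefSeq on GRCh38.p14, read 5′ to 3′ on the gene's strand. Capitals mark matches on either strand to TGACTCA (the classical AP-1 site), TGACGTCA (the cyclic AMP response element), TGACATCA (the form known from the JUN promoter), TGACGT (which overlaps TGACGTCA) and TATAAA.
JUN, chr1:58783998-58784297, minus strand: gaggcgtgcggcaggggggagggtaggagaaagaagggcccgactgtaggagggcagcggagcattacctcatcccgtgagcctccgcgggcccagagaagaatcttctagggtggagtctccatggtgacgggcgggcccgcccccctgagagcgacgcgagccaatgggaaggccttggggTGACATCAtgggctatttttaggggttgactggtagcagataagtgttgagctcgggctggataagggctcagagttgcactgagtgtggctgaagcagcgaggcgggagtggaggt
JUND, chr19:18281573-18281872, minus strand: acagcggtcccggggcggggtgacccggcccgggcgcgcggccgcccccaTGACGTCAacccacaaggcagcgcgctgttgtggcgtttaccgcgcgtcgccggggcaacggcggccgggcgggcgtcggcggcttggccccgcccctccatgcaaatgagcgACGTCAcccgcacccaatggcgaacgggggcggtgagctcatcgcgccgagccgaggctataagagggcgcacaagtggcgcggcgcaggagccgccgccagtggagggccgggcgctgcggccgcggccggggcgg
FOS, chr14:75278578-75278877, plus strand: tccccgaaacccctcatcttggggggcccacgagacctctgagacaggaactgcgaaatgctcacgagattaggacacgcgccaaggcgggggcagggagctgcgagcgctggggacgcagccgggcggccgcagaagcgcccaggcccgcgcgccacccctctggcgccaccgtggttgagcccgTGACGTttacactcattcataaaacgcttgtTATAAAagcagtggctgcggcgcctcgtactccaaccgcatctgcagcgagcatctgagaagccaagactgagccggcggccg
JUNB, chr19:12791236-12791535, plus strand: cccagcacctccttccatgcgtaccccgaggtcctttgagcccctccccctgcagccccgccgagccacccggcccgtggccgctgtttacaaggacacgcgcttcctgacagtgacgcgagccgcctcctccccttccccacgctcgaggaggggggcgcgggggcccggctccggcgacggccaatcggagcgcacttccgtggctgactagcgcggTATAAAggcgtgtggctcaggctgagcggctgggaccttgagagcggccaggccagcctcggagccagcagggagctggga
The JUN run held TGACATCA at bases -67 to -60 from the start, letters found in 2.61% of 35116 promoters of the same length. JUND held the full TGACGTCA at -200 to -193 (1.85% of promoters) and a further TGACGT, on the other strand, at -87 to -82. The FOS run held TGACGT at -64 to -59 (7.98% of promoters) and TATAAA at -33 to -28 (11.5%), and JUNB held TATAAA at -31 to -26. Of the 2 other members in the promoter table, FOSB held TGACGT and TATAAA, and FOSL2 held TGACGT and, at 5 to 11 after the start, TGACTCA (4.95%). These matches are letters in a window and say nothing of which factor was bound.

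FOSL1, the FRA-1 gene (chromosome 11, 65892049 to 65900573, GRCh38), and JUN, the c-Jun gene (chromosome 1, 58780788 to 58784327), were the members with the largest rises without cystine. After 24 h FOSL1 stood at 182, 199.9 and 189 CPM in the deprived samples, against 28.7, 31.6 and 30.3 CPM in the control samples. Every deprived sample was far above every control sample, a 6.31-fold difference (log2 fold change 2.66 ± 0.08, SE, edgeR adjusted p = 3.98e-15). At 48 h the deprived samples held 268, 299.6 and 327.5 CPM and the controls 47.3, 55.9 and 47.6 CPM, a 5.94-fold difference (2.57 ± 0.08, adjusted p = 7.77e-16). The effect of deprivation on FOSL1 at 48 h differed from that at 24 h by -0.09 ± 0.11 on the log2 scale, which did not pass the test (adjusted p = 0.584).

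JUN had 125, 131 and 125 CPM in the deprived samples at 24 h, against 20.6, 20.1 and 20.8 CPM in the controls. The 3 deprived samples were close together and apart from the controls, 6.19-fold higher (2.63 ± 0.07, edgeR adjusted p = 1.05e-15). After 48 h JUN reached 227, 244 and 263 CPM in deprived cells, against 26.9, 32.6 and 29.9 CPM in controls, and was 8.22-fold higher (3.04 ± 0.07, adjusted p = 1.4e-17). The effect on JUN was larger at 48 h, by 0.41 ± 0.10 on the log2 scale (adjusted p = 0.00319). Among 16994 genes ordered by log2 fold change at 24 h, FOSL1 ranked 104 and JUN 108 from the top. At 48 h they ranked 186 and 127.

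JUND (chromosome 19, 18279760 to 18281622), a JUN-type gene with its coding sequence in 1 exon, also rose at both times. The deprived samples at 24 h held 143, 141 and 139 CPM and the controls 71.2, 72.3 and 93.0 CPM, 1 control lying above the other 2 but below every deprived sample. JUND was 1.79-fold higher at 24 h (0.84 ± 0.09, edgeR adjusted p = 2.05e-07). At 48 h it had 137, 146 and 125 CPM in deprived cells, against 93.6, 115 and 108 CPM in controls, a 1.29-fold difference (0.37 ± 0.09, adjusted p = 0.00108). The 2 groups were closer at 48 h, and the effect there was smaller than at 24 h by a tested difference of -0.47 ± 0.13 (adjusted p = 0.00646).

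FOSB (chromosome 19, 45467995 to 45475179), the member with the lowest level per kb of gene length, had 4.73, 5.49 and 5.22 CPM in deprived cells at 24 h, against 2.74, 2.52 and 3.38 CPM in controls. The groups did not overlap, and FOSB was 1.79-fold higher (0.84 ± 0.19, edgeR adjusted p = 0.000849), on 97 to 127 counts per deprived sample and 49 to 66 per control sample. At 48 h deprived samples held 8.32, 7.47 and 9.11 CPM and controls 4.86, 7.45 and 7.71 CPM. Those ranges overlapped, and the difference of 0.32 ± 0.16 did not pass (adjusted p = 0.0907), although it did without control replicate 3 at 48 h (0.44, adjusted p = 0.0435, with 0.0435 to 0.450 over all alternatives). Without control replicate 1 at 48 h the difference was 0.13 (adjusted p = 0.450). The change in the FOSB effect between the times, -0.52 ± 0.25, was not called either (adjusted p = 0.114), but was at -0.70 without control replicate 1 at 48 h (adjusted p = 0.0165, with 0.0165 to 0.259 over all alternatives).

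FOS, the c-Fos gene (chromosome 14, 75278774 to 75282230), went the other way from FOSL1 and JUN. At 24 h it had 6.83, 7.52 and 7.79 CPM in deprived samples, against 10.9, 11.1 and 14.05 CPM in controls. All deprived samples were lower, and FOS fell by 0.70 ± 0.14 on the log2 scale (edgeR adjusted p = 0.000321). At 48 h the deprived samples stayed at 7.13, 6.36 and 6.38 CPM, whereas controls held 37.1, 54.0 and 47.2 CPM. FOS was then 6.95-fold lower in deprived cells (-2.80 ± 0.13, adjusted p = 5.27e-13), ranking 374 from the bottom of all genes tested. This effect exceeded the one at 24 h by -2.09 ± 0.19 (adjusted p = 9.21e-08).

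JUNB (chromosome 19, 12791496 to 12793315), a JUN-type gene that can also oppose JUN, was lower in deprived cells as well. At 24 h it had 92.0, 89.9 and 96.7 CPM in deprived samples, against 103, 109 and 114 CPM in controls, a small gap between groups that did not overlap (-0.22 ± 0.07, edgeR adjusted p = 0.0109). That call was lost without control replicate 3 (adjusted p = 0.0577) or without deprived replicate 2 (adjusted p = 0.0521), and over all alternatives the adjusted p ran from 0.000423 to 0.0577. At 48 h JUNB held 128, 142 and 146 CPM in deprived samples and 212, 247 and 255 CPM in controls, 1.72-fold lower without cystine (-0.78 ± 0.07, adjusted p = 5.58e-09). The effect at 48 h was the larger, by -0.55 ± 0.10 (adjusted p = 0.000205). JUNB shares 259 of its 1820 annotated exonic bases with HOOK2 on the opposite strand, and no source used here says whether counting used strand, so part of its count may belong to HOOK2. HOOK2 itself was higher in deprived cells, by 0.27 ± 0.05 at 24 h (adjusted p = 0.000166) and 0.21 ± 0.05 at 48 h (adjusted p = 0.00104). Its count may likewise hold reads of JUNB, and how reads in the shared bases were divided was not tested. ERCC1 overlaps FOSB and 2 other genes overlap FOSL2, but they share no annotated exonic base with these members.

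FOSL2, the FRA-2 gene (chromosome 2, 28392448 to 28417312), turned between the times. It was higher in deprived cells at 24 h, with 71.0, 70.9 and 79.3 CPM against 54.5, 60.9 and 56.8 CPM in controls (0.36 ± 0.07, edgeR adjusted p = 0.000281). It was lower at 48 h, with 64.4, 73.0 and 74.2 CPM in deprived samples against 113, 123 and 106 CPM in controls (-0.70 ± 0.07, adjusted p = 3.64e-08). Neither pair of groups overlapped, and the difference between the 2 effects was -1.06 ± 0.10 (adjusted p = 1.21e-07). The deprived samples lay in nearly the same range at both times, and the control samples did not.

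**Figure D1:**
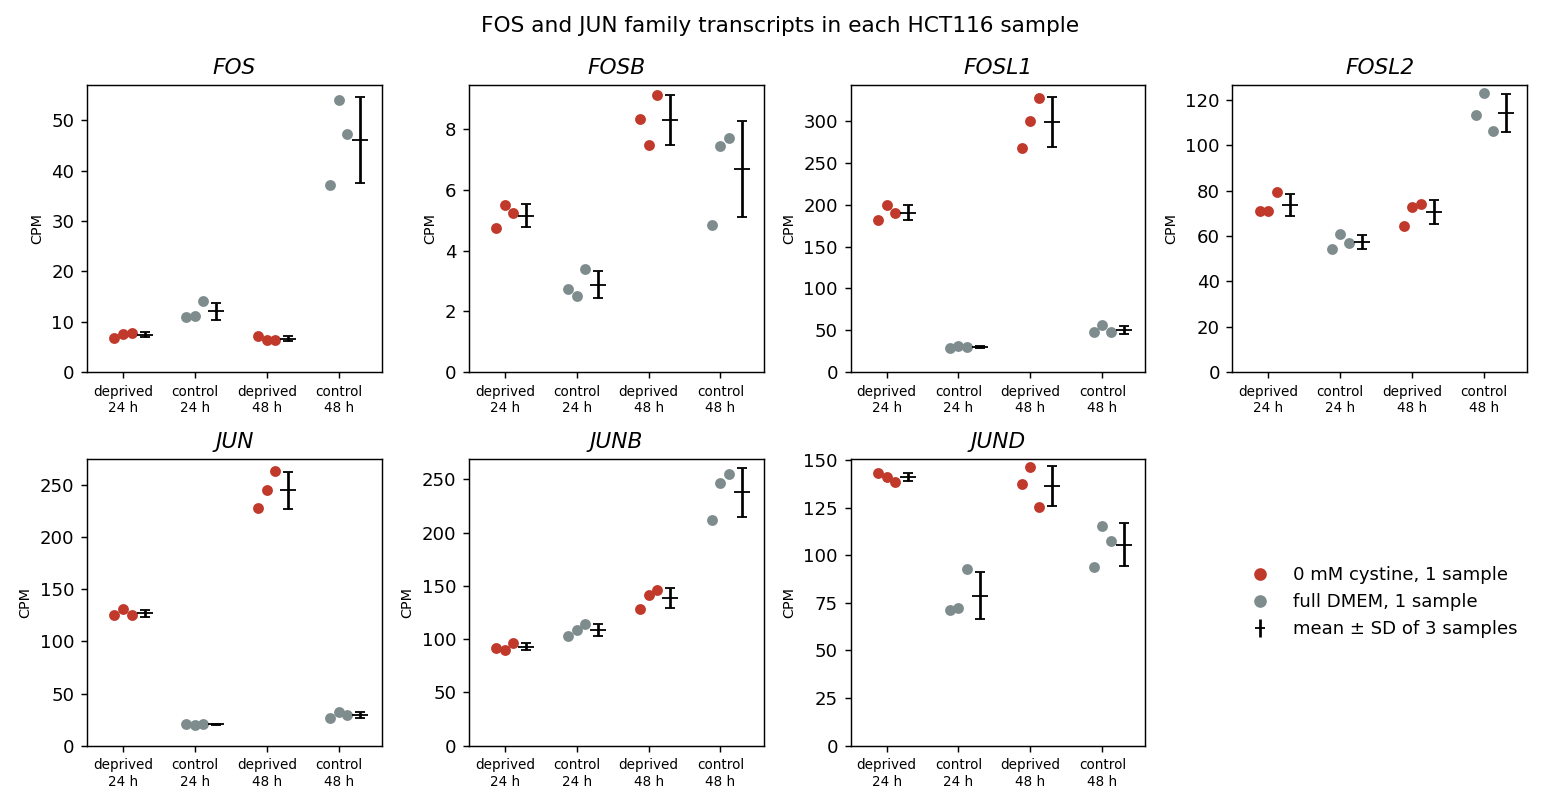
Level of each member in every sample, in CPM with TMM-scaled library sizes on a linear axis from 0, with points for single samples and black bars for the mean ± SD of 3. FOSL1 and JUN stand far higher in deprived cells at both times, while FOS, FOSL2 and JUNB reach their highest levels in control cells at 48 h.

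At 24 h 7 of 7 members were called, 5 higher and 2 lower, where 55.6% of all genes tested were called, 28.8% higher and 26.9% lower. At 48 h 6 of 7 were called, 3 higher (FOSL1, JUN and JUND) and 3 lower (FOS, FOSL2 and JUNB), against 68.3% of all genes, 33.5% higher and 34.9% lower. With so many genes called at both times, the count of members is no result about the family. Each effect was measured against the controls of its own time, and all later comparisons reuse these 12 samples. The effect of deprivation differed between the times for 5 of 7 members, upwards for JUN and downwards for FOS, FOSL2, JUNB and JUND, where 35.6% of all genes differed, 16.4% upwards and 19.2% downwards. Scaling by library totals alone turned the balance over all genes to 3347 upwards and 2847 downwards between the times, against 2787 and 3261 with TMM. At 24 h it gave 4086 higher and 5320 lower, against 4886 and 4565. The members' calls and directions were as with TMM.

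The next comparison asked how much of this came with time in either medium. In control cells all 7 members were higher at 48 h than at 24 h, where 23.0% of all genes were called, 12.7% higher and 10.4% lower. Scaling by library totals alone changed that split over all genes to 1697 higher and 2580 lower, against 2151 and 1760 with TMM, but all 7 members stayed higher. FOS had the largest change, at 46.1 ± 8.51 CPM in control cells at 48 h, against 12.04 ± 1.74 CPM at 24 h (SD, n = 3), and 3.83-fold higher (1.94 ± 0.12, edgeR adjusted p = 3.5e-09). It ranked 43 from the top of all genes tested in control cells. FOSB followed at 2.31-fold (1.21 ± 0.18, adjusted p = 0.000112), then JUNB at 2.19-fold (1.13 ± 0.07, adjusted p = 2.23e-09) and FOSL2 at 1.99-fold (0.99 ± 0.07, adjusted p = 1.64e-08). FOSL1 (1.66-fold, 0.73 ± 0.08), JUN (1.45-fold, 0.54 ± 0.08) and JUND (1.34-fold, 0.42 ± 0.09) rose less, with adjusted p of 4.85e-06, 6.15e-05 and 0.00218.

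Without cystine, 4 of 7 members were higher at 48 h than at 24 h and none was lower, where 42.5% of all genes were called, 20.7% higher and 21.8% lower. JUN had 245 ± 17.7 CPM at 48 h, against 127 ± 3.32 CPM at 24 h in deprived cells, and was 1.93-fold higher (0.95 ± 0.06, edgeR adjusted p = 3.79e-10). FOSB was 1.61-fold higher (0.69 ± 0.17, adjusted p = 0.0025), FOSL1 1.57-fold (0.65 ± 0.07, adjusted p = 5.44e-07) and JUNB 1.49-fold (0.58 ± 0.07, adjusted p = 1.92e-06). FOS (-0.16 ± 0.15, adjusted p = 0.432), FOSL2 (-0.06 ± 0.07, adjusted p = 0.497) and JUND (-0.05 ± 0.09, adjusted p = 0.69) were not called, and their ranges at the 2 times overlapped. For FOS, the difference of -2.09 between the effects at 48 h and 24 h is thus -0.16 in deprived cells less 1.94 in control cells. For FOSL2 the -1.06 is -0.06 in deprived cells less 0.99 in control cells. The falls of both genes at 48 h are relative to controls that had risen, in which only time in unchanged medium is described. Against the controls at 24 h the 2 genes differed, in a comparison that was not tested. FOS averaged 6.62 CPM in deprived cells at 48 h, below the 12.04 CPM of those controls. FOSL2 averaged 70.5 CPM in deprived cells at 48 h, above their 57.4 CPM. No source used here gives the cell density.

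**Figure D2:**
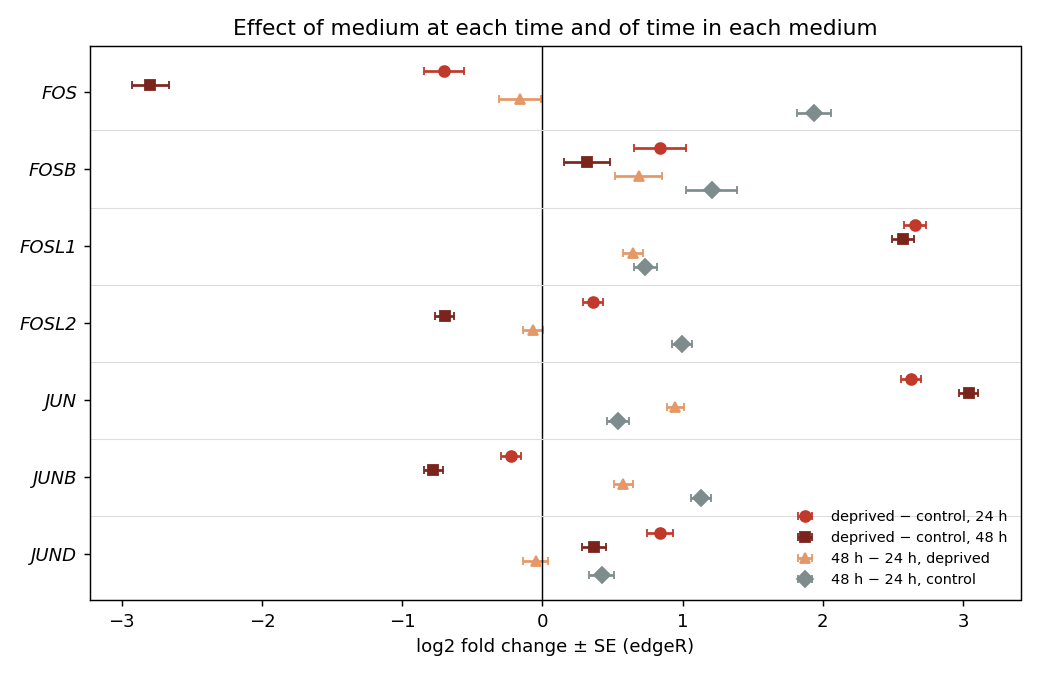
Log2 fold change ± SE of each member from edgeR for the effect of deprivation at 24 h and 48 h and the effect of time in deprived and control cells, with 0 as no difference. FOSL1 and JUN lie above 2.5 for deprivation at both times, FOS falls to -2.80 at 48 h, and the effect of time in control cells is above 0 for all 7 members.

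To compare levels between members, CPM were divided by the gene length in the deposited table, in kilobases. On this scale FOSL1 was the most abundant member in deprived cells, at 112 ± 5.32 CPM per kb at 24 h and 175 ± 17.5 at 48 h (SD, n = 3). In control cells it was JUNB, at 59.3 ± 3.12 CPM per kb at 24 h and 129.96 ± 12.5 at 48 h. The order at 24 h in deprived cells was FOSL1, JUND, JUNB, JUN, FOSL2, FOS and FOSB, with no overlap between neighbours. At 48 h in deprived cells JUNB (75.8 ± 5.26), JUN (75.1 ± 5.43) and JUND (70.6 ± 5.39) followed FOSL1 and overlapped, with FOSL2, FOS and FOSB below. The control order at 24 h was JUNB, JUND, FOSL1, FOSL2, JUN, FOS and FOSB, in which JUN (6.29 ± 0.12) and FOS (5.72 ± 0.83) overlapped. The control order at 48 h was JUNB, JUND, FOSL1, FOS, FOSL2, JUN and FOSB, in which FOS (21.9 ± 4.05) and FOSL2 (17.03 ± 1.26) overlapped and JUN stood at 9.15 ± 0.87.

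The make-up of the family differed accordingly. FOSL1 and JUN together held 51.9 ± 1.24% of the summed length-scaled level in deprived cells at 24 h, against 17.3 ± 1.11% in controls. At 48 h they held 60.6 ± 1.94% in deprived cells, against 14.7 ± 0.90% in controls. JUNB alone held 17.5 ± 0.77% in deprived cells at 24 h, against 42.7 ± 1.14% in controls, and 18.4 ± 0.12% at 48 h, against 49.2 ± 1.77%. FOS held 1.21 ± 0.07% and 0.77 ± 0.10% in deprived cells at 24 h and 48 h, against 4.10 ± 0.29% and 8.25 ± 0.79% in controls. The 4 FOS-type genes together held 43.95 to 46.3% on average in deprived cells and 23.6 to 26.6% in controls. The summed level of the 7 members was 285 to 296 CPM per kb in deprived samples at 24 h, against 130.3 to 151 in controls, and 384 to 434.5 at 48 h, against 236 to 284. These shares are of transcripts and not of proteins, and they depend on the deposited lengths.

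**Figure D3:**
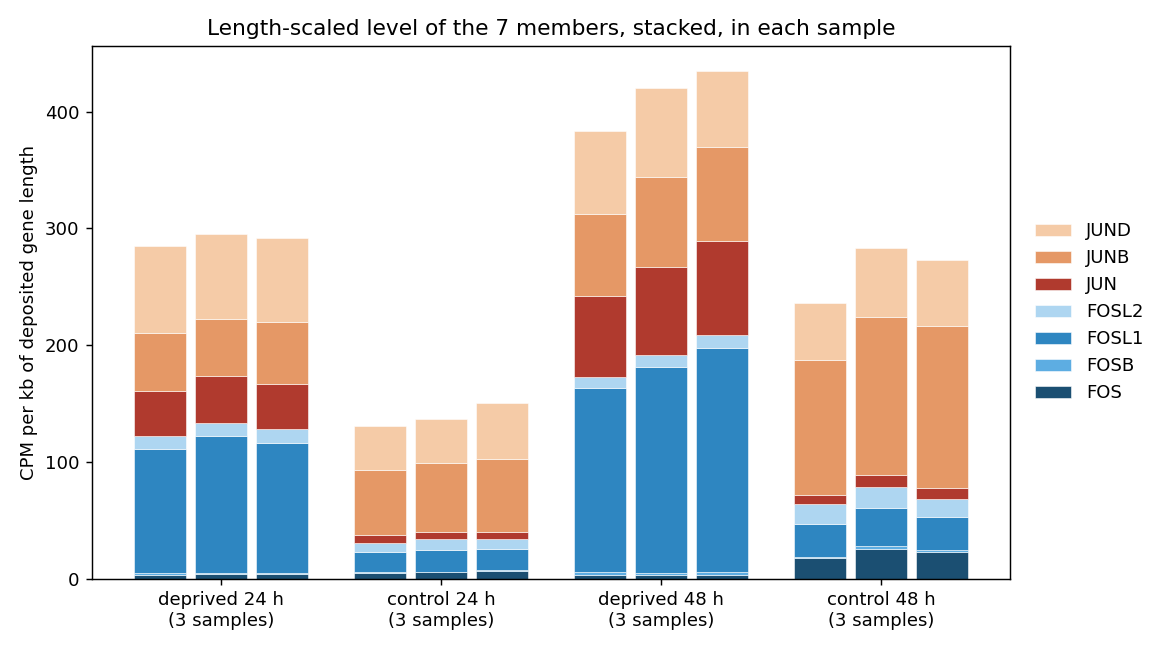
Stacked level of the 7 members in each of the 12 samples, in CPM per kb of deposited gene length, with FOS-type genes in blue below and JUN-type genes in red and orange above. FOSL1 and JUN make up 51.9% and 60.6% of the stack in deprived cells at 24 h and 48 h, and JUNB 42.7% and 49.2% in control cells.

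Over the 12 samples the members fell into patterns, described here by Pearson's r of log2(CPM + 1) with no test, since all values share 4 group means. FOSL1 and JUN were closest (r = 0.996), and JUND followed both (0.89 and 0.86). FOS and JUNB (0.84), FOSL2 and JUNB (0.83) and FOS and FOSL2 (0.77) formed the other pattern, and FOS ran against JUN (-0.67) and FOSL1 (-0.63). The split was not clean. FOSB went with JUND (0.74), FOSL1 (0.68) and JUN (0.67), but also with FOSL2 (0.51) and JUNB (0.50), and hardly with FOS (0.07). FOSL2 did not run against FOSL1 (-0.04) or JUND (0.21). Outside the family, the genes most like FOSL1 were GADD45A, FHL2 and FAM107B (r of 0.996 to 0.997), and those most like JUN were DAP, GADD45A and STC2 (0.997 each). For FOS they were FAM71E1, BCL3 and TMEM59L (0.978 to 0.98), and for JUNB ANGPTL4, NDRG1 and DUSP6 (0.976 to 0.982). FOSL2 was matched by RIN1, RRNAD1 and RSPH3 (0.944 to 0.973), FOSB by EML2, IER2 and MAFF (0.961 to 0.973) and JUND by BAIAP2L1, RNF126 and USP42 (0.955 to 0.97).

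Some FOS-type and JUN-type transcripts are known for fast decay through AU-rich elements of the 3′ untranslated region. These elements were therefore counted in 1 annotated transcript per gene (GENCODE release 29). FOS held 5 copies of ATTTA in 806 bases, or 6.2 per kb, against a median of 1.52 per kb over 13301 tested genes. JUNB held 4 per kb, on only 2 copies in 500 bases. JUN held 3 copies, or 2.33 per kb, and FOSL2 held 9, or 1.85 per kb. FOSL1, JUND and FOSB lay between 1.39 and 1.5 per kb. The longer form TTATTTATT, in capitals below with its flanks, occurred in FOS and FOSL2 and in 8.03% of tested genes.
FOS, bases 646 to 654 of the 3′ untranslated region: tttttaatTTATTTATTaagatgga
FOSL2, bases 3917 to 3925: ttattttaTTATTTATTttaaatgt
The 8.03% takes no account of length, and the region of FOSL2 has 4864 bases, against a median of 1004 over tested genes. Whether these sites bear on the members' levels was not tested. Decay itself was not measured.

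Genes around the family were read from 5 lists of textbook genes. Of 7 other dimer partners, 6 were tested, and 3 rose at 24 h and 4 at 48 h with none lower (median log2 fold change 0.39 at both times, where the median of all genes was -0.01 and -0.02). Of all genes tested, 55.6% were called at 24 h and 68.3% at 48 h, so the share of partners called was near that of any genes. ATF3, a stress-induced factor that pairs with JUN proteins, had 74.2 ± 2.29 CPM in deprived cells at 24 h, against 17.3 ± 1.05 CPM in controls, and 88.8 ± 3.82 against 16.97 ± 1.74 CPM at 48 h, 4.28-fold and 5.24-fold higher (edgeR adjusted p = 2.83e-14 and 7.87e-16). JDP2, a repressor that dimerises with JUN, had 41.6 ± 3.66 CPM in deprived cells at 24 h, against 13.0 ± 0.98 CPM in controls, and 63.95 ± 4.11 against 11.78 ± 0.71 CPM at 48 h, 3.19-fold and 5.43-fold higher (adjusted p = 6.76e-12 and 5.99e-15). ATF7 changed less (0.32 ± 0.07 and 0.51 ± 0.06, adjusted p = 0.000347 and 8.83e-07).

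Of the MAP kinases upstream, 17 of 18 were tested. Of these, 4 rose and 5 fell at 24 h, and 8 rose and 7 fell at 48 h, with medians of 0.04 at both times. Of all genes, 28.8% were higher and 26.9% lower at 24 h, and 33.5% and 34.9% at 48 h. The shares of kinases were near these at 24 h and above them in both directions at 48 h, when 2 of 17 were not called. MAPK3, which encodes ERK1, fell by 0.34 ± 0.07 at 24 h and by 0.86 ± 0.07 at 48 h (edgeR adjusted p = 0.000554 and 3.89e-09). MAP2K1, its activating kinase MEK1, rose by 0.29 ± 0.07 at 24 h and 0.49 ± 0.07 at 48 h (adjusted p = 0.00101 and 1.79e-06). RPS6KA1 fell by 0.43 ± 0.06 and 0.25 ± 0.06 (adjusted p = 4.77e-06 and 0.000784). MAP2K5 rose by 0.55 ± 0.09 and 0.30 ± 0.09 (adjusted p = 3.47e-05 and 0.00418). MAP2K2 fell by 0.19 ± 0.06 and 0.41 ± 0.06 (adjusted p = 0.0101 and 3.89e-06). Kinase activity was not measured.

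Among 10 factors known to act at the FOS and JUN promoters, 4 rose and 2 fell at 24 h, and 6 rose and 3 fell at 48 h (medians 0.15 and 0.42), where 55.6% and 68.3% of all genes were called. MEF2C, a MADS-box factor, had 11.7 ± 0.81 CPM in deprived cells at 24 h, against 47.8 ± 1.66 CPM in controls, and 8.31 ± 1.49 against 44.1 ± 2.33 CPM at 48 h (-2.03 ± 0.09 and -2.41 ± 0.10, edgeR adjusted p = 1.52e-12 and 6.36e-14). Its relative MEF2A rose at both times (0.74 ± 0.06 and 0.65 ± 0.06, adjusted p = 2.58e-09 and 4.61e-09). MEF2D also rose at 24 h (0.57 ± 0.07, adjusted p = 4.58e-07) and at 48 h (0.57 ± 0.06, adjusted p = 1.94e-07). ELK3, a partner of serum response factor at the FOS promoter, rose 1.21-fold at 24 h and 1.73-fold at 48 h (adjusted p = 3.46e-05 and 9.29e-12).

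Genes acting on the decay of FOS and JUN transcripts or the breakdown of their proteins rose in 7 and fell in 1 of 10 at 24 h, and rose in 3 and fell in 3 at 48 h (medians 0.25 and 0.11), where 55.6% and 68.3% of all genes were called. ZFP36, tristetraprolin, which binds AU-rich elements, had 56.6 ± 0.51 CPM in deprived cells at 24 h, against 29.3 ± 1.63 CPM in controls, 1.93-fold higher (edgeR adjusted p = 7.63e-09), and 88.9 ± 4.26 against 82.0 ± 10.5 CPM at 48 h (adjusted p = 0.153). Its relative ZFP36L2 fell by 0.67 ± 0.06 at 24 h and 1.38 ± 0.06 at 48 h (adjusted p = 3.9e-08 and 5.14e-13). ZFP36L1 instead rose by 0.31 ± 0.06 at 24 h and 0.45 ± 0.06 at 48 h (adjusted p = 0.000248 and 1.56e-06). HNRNPD, the AU-rich element binding protein AUF1, rose by 0.57 ± 0.05 at 24 h (adjusted p = 1.58e-08) but fell by 0.14 ± 0.05 at 48 h (adjusted p = 0.0183), with 208 ± 5.76 CPM in deprived cells, against 229.7 ± 6.78 CPM in controls. KHSRP fell by 0.32 ± 0.05 at 48 h (adjusted p = 3.12e-05) and was not called at 24 h (0.02 ± 0.05, adjusted p = 0.784).

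Of 27 genes listed as AP-1 targets in textbooks, 22 were tested. At 24 h 14 rose and 3 fell, with a median log2 fold change of 1.20, and at 48 h 15 rose and 5 fell, with a median of 1.39. Of all genes, 28.8% rose and 26.9% fell at 24 h, and 33.5% rose and 34.9% fell at 48 h. PLAU, urokinase, was 3.85-fold higher at 24 h and 5.99-fold at 48 h (edgeR adjusted p = 5.23e-14 and 1.59e-16), with 252 ± 7.12 CPM in deprived cells at 48 h, against 42.1 ± 5.35 CPM in controls. HMOX1, haem oxygenase, was 16.4-fold higher at 24 h and 53.4-fold at 48 h (adjusted p = 1.23e-16 and 5.03e-19). CD44, GSTP1 and TGFB1 were the 3 that fell at 24 h. SPRR1B, low in all samples, had no count in the 3 control samples at 24 h and was at least 17.3-fold higher in deprived cells, taking 3 counts over the control group as the floor; the median stayed at 1.20 with this bound. Many listed targets answer to other factors too, HMOX1 among them, and binding was not measured.

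**Figure D4:**
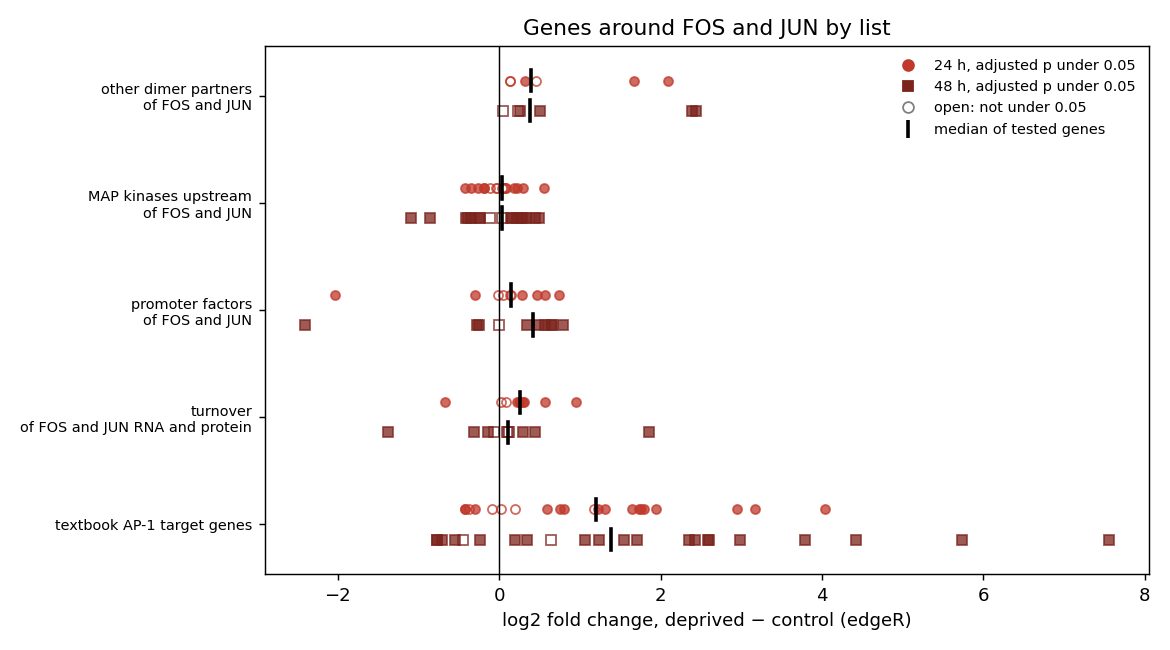
Log2 fold change of deprived over control cells from edgeR for each tested gene of the 5 lists, at 24 h (circles) and 48 h (squares), filled where the adjusted p was under 0.05, with a black mark at the median. ATF3 and JDP2 stand above the other dimer partners, MEF2C lies lowest among the promoter factors, and the listed AP-1 targets spread widest; SPRR1B at 24 h, listed at 0 in all 3 control samples, is not drawn.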

How the data were processed

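RNA-seq libraries of 12 HCT116 samples in 4 groups of 3 were used, each grouped by its title. The labels name a table of TPM from RSEM, but the deposited columns hold totals that differ between samples (19146108 to 24179533), so their values were treated as estimated counts that the authors had not normalized; the submitters' processing notes name fastp, HISAT, RSEM and GRCh38, without versions or roles. Per the file headers, the other column used is gene length. Rows without a gene name (316 of 60987, 0.748% to 1.65% of counts per sample) were left out and counts were rounded. Low genes were removed by filterByExpr of edgeR at a count of 10 and a total of 15, and the rest were TMM-scaled. One fit of 4 group means gave 5 contrasts by the quasi-likelihood test (edgeR 4.0.16, R 4.3.3), adjusted over 16994 genes by Benjamini-Hochberg, with a threshold of 0.05; the SE is the log2 fold change divided by the root of F. Steps were tested on simulated data.

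Members and lists were chosen with earlier results of these data known. Named genes were all 7 members, the 3 genes of each list with the smallest adjusted p per time at a mean of at least 5 CPM, and the 3 most correlated genes per member, of which some are not reported here; CDX1, the markers, the genes overlapping a member, SPRR1B, CD44, GSTP1 and TGFB1 fall outside this rule and were named after their values were seen. Gene coordinates are those of GENCODE 29 on GRCh38, not stated to be the authors' release. Replicates differed by more than sampling noise (chi-square per degree of freedom 3 to 8.12). Alternatives were other scalings, DESeq2 1.42.0, other filters, a replicate block, the compared groups alone and each sample left out.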

Additional observations from a re-analysis of the deposited data

Results flagged for a closer look

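The effect of cystine deprivation differed between 48 h and 24 h for 5 members, by edgeR's interaction test. The difference, as the log2 fold change at 48 h minus that at 24 h, was -2.09 for FOS, -1.06 for FOSL2, -0.55 for JUNB, -0.47 for JUND and 0.41 for JUN. For FOSL2 the direction itself turned, being lower in deprived cells at 48 h and higher at 24 h. In FOS, FOSL2, JUNB and JUND the time effect in control cells was larger than in deprived cells, and in JUN it was smaller. Deprived cells alone are described as having received fresh medium at the start; its part in these differences cannot be told apart from that of cystine.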

How the results depend on the processing

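The 7 members in 5 contrasts were recomputed under 20 alternatives, which gave 693 values; the fit of the compared groups alone has no value for the difference between times. In 688 of them direction and side of the threshold were as reported. The 4 that crossed the threshold, all with 1 sample left out, are given beside JUNB and FOSB. JUND between 48 h and 24 h in deprived cells, not called, changed sign without deprived replicate 3 at 48 h (0.0085, adjusted p = 0.959). With each sample left out in turn this value ran from -0.099 to 0.0085, and the adjusted p over all alternatives from 0.468 to 0.959. The 600 values for list genes and the 198 counts of calls gave no other verdict, counts being held to 1.5 times. Whether replicate numbers pair the samples was not settled. Of 18 same-numbered pairs, 1 had deviations correlated over 0.1. The best match, out of 3 samples each time, had the same number in 17 of 36 cases. With the replicate block, 9631 genes were called at 24 h and 11734 at 48 h, against 9451 and 11615 without it, and no member's call changed. FOSB had 49 to 200 counts per sample, which limits its precision.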
